A study of Homo sapiens with 6 samples.

Results

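The baseline transcriptome of NCI-H146 cells (H146), an established small-cell lung cancer (SCLC) cell line, was described from the libraries of cells that had received a control siRNA. These were 3 of the 6 RNA sequencing libraries of the series and were chosen by their label alone. The study asked what silencing of KIFC1, a kinesin motor that gathers extra centrosomes into a bipolar spindle, changes in SCLC cells, and the other 3 libraries, of cells given siRNA against KIFC1, were not used here. All control cells were wild type and were transfected with the scrambled negative control siRNA, and RNA was taken at day 2, 48 hours after transfection. No untransfected cells were analysed here, so the levels are those of transfected cells. H146 is a single line, and its libraries are labelled as biological replicates, so the spread given below is that between cultures of 1 line and not between tumors.

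SCLC is a neuroendocrine carcinoma of the lung. Its cells carry dense core granules with peptide hormones, and their identity is set by a small group of transcription factors, of which NEUROD1, POU2F3 and YAP1 name some of the subtypes. INSM1 is a zinc finger factor of neuroendocrine cells, SYP is a membrane protein of secretory vesicles, and NCAM1 (CD56) is a neural adhesion molecule. Loss of RB1 function is a hallmark of the disease.

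The libraries held 17107710, 15919169 and 17754458 counts on 28395 genes. Levels are given as CPM, the usual scaling of a gene's count to its library's total, in the order of libraries 1, 2 and 3, and where genes are compared with each other as TPM, in which each count is divided by the length of the gene's annotated exons before scaling. A gene was taken as expressed with at least 1 CPM in each library, as at the floor with 3 or fewer counts in each library, and otherwise as between. The floor of 3 counts is 0.175, 0.188 and 0.169 CPM, covers counting error only, and does not show that a gene was absent. Values with ± are the mean and SD over the libraries (n = 3). With 1 group there was no contrast, and no test was made. Some genes are also present on alternate sequences of the reference genome, here named an alternate copy, and this is stated where it applies. The libraries were correlated at 0.991 to 0.994 across the 13414 expressed nuclear genes (Pearson, log2 of CPM + 1). That is a correlation across genes, which are not replicates.

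The markers given with the cells were expressed in every library. In GRCh38, INSM1 (NCBI gene 3642) lies on chromosome 20 from 20368104 to 20370949, NCAM1 (NCBI gene 4684) on chromosome 11 from 112961420 to 113278436 and SYP (NCBI gene 6855) on chromosome X from 49187815 to 49200193. INSM1 was at 720.4, 673 and 650.5 CPM, NCAM1 at 221, 241 and 271 CPM and SYP at 125, 140.02 and 142 CPM. Per exon length INSM1 was the highest at 796 ± 22.6 TPM, with SYP at 65.1 ± 8.01 TPM and NCAM1 at 64.5 ± 10.9 TPM. These levels depend on the length used. With the length of 1 canonical transcript INSM1 was still the highest, at 525 ± 15.7 TPM, but SYP, at 124 ± 13.7 TPM, was above NCAM1, at 92.7 ± 14.6 TPM, so no order of SYP and NCAM1 is given.

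Of the 28395 genes, 13441 (47.3%) were expressed, 3977 were between and 10977 were at the floor. Among 19175 protein-coding genes 12374 (64.5%) were expressed and 4425 were at the floor. These shares are the background for the gene groups below. Of 4108 long noncoding RNA genes 626 (15.2%) were expressed. Olfactory receptor genes, which serve smell and are used by few other cells, were at the floor in 350 of 371 cases, and 3 were expressed. The mean level was at least 100 CPM for 2359 genes and at least 1000 CPM for 44, of which 31 were nuclear protein-coding genes.

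The counts were concentrated on mitochondrial and housekeeping genes. The 10 genes with the highest mean CPM took 11.1%, 9.81% and 8.16% of the counts, and the 1000 highest took 49.5%, 48.2% and 46.4%. Of the 25 highest genes 10 lie on mitochondrial DNA. The 15 nuclear ones begin with EEF1A1, which brings aminoacyl-tRNA to the ribosome, at 5762, 5318 and 5089 CPM. The cytosolic chaperone HSP90AB1 followed at 4547, 4716 and 4509 CPM and the glycolytic enzyme GAPDH at 4394, 4537 and 3862 CPM. The actins ACTB and ACTG1 were at 4188 ± 433 CPM and 3777 ± 294 CPM, and the alpha tubulin TUBA1B was at 2893 ± 278 CPM. MAP1B, a microtubule protein of growing neurons, was at 2783, 2738 and 3489.7 CPM. It was highest in library 3, whereas ACTB, ACTG1, GAPDH and TUBA1B were lowest there. Further chaperones among the 25 were HSP90AA1 at 2442 ± 80.7 CPM, HSPA8 at 2225 ± 44.6 CPM and HSP90B1, that of the endoplasmic reticulum, at 1629 ± 99.9 CPM. EIF4G2, a translation initiation factor, was at 1986 ± 45.3 CPM, the ribosomal protein gene RPS2 at 1713 ± 184 CPM, the adaptor YWHAZ at 1653 ± 93.5 CPM, the RNA-binding protein HNRNPA1 at 1635 ± 95.9 CPM and the poly(A)-binding protein PABPC1 at 1631 ± 32.96 CPM.

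**Figure D1:**
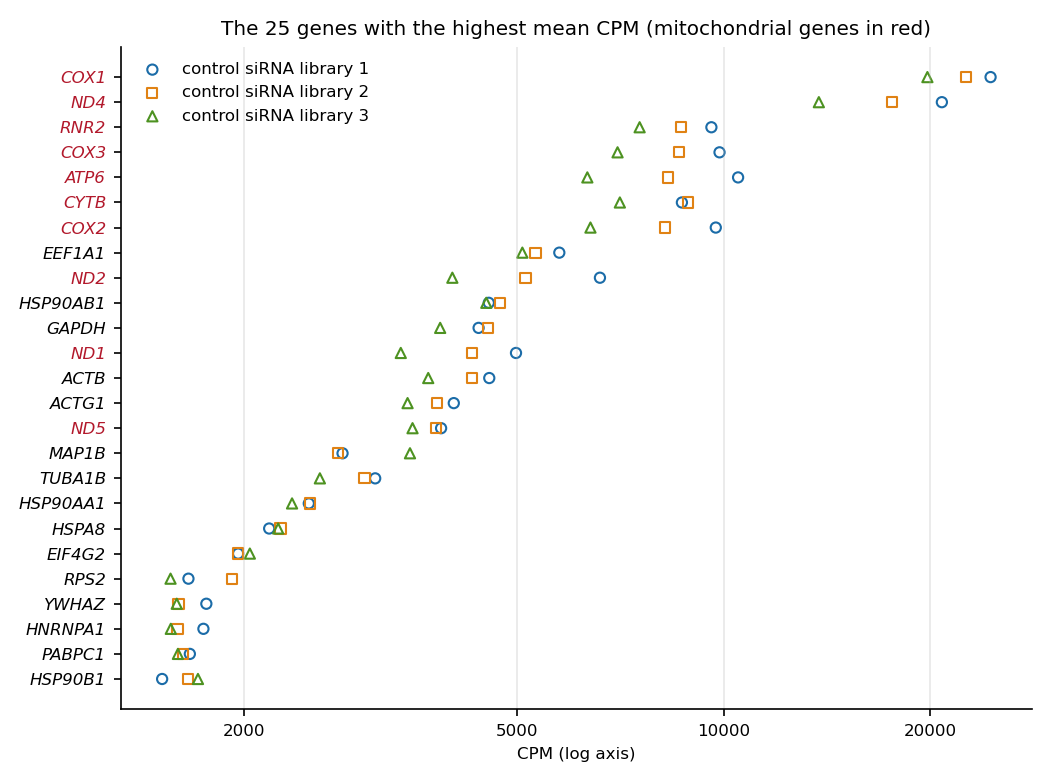
CPM on a log axis of the 25 genes with the highest mean, 1 symbol per control siRNA library, with the 10 mitochondrial genes in red. Library 3 is the lowest for each of the mitochondrial genes, and COX1 runs from 19830.5 to 24516 CPM.

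The order changed per exon length. Of the 25 genes, 15 were also among the 25 highest by TPM, where 16 were mitochondrial. The highest nuclear genes by TPM were GAPDH at 5914 ± 237 TPM, HSP90AB1 at 5133 ± 297 TPM, the actin-binding peptide gene TMSB10 at 3812 ± 398 TPM, ACTB and ACTG1, and then the neuropeptide gene NTS at 3064 ± 317 TPM, ranked 20 of all genes. This order of nuclear genes depends on the length used. With canonical transcript lengths NTS was at 2537 ± 291 TPM. TUBA1B and EEF1A1 were then above it, at 3893 ± 174 TPM and 3365 ± 110 TPM. ACTB, at 5059 ± 267 TPM, was then above HSP90AB1, at 3946 ± 180 TPM. The 80 genes of cytosolic ribosomal proteins took 3.25%, 3.34% and 2.78% of the counts and filled 19 of the 100 highest places of nuclear genes by TPM. Many abundant genes have processed pseudogenes that share their sequence. Of the 32-base words of the RPS2 transcript 90.3% lie at more than 1 place of the primary chromosomes, and of those of TUBA1B 71.8%, so their levels depend on how reads with several places were counted, which is not given in the sources used here. Replication-dependent histone genes, whose mRNAs carry no poly(A) tail, took 0.00948%, 0.00960% and 0.00876% of the counts over 69 genes.

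Genes of mitochondrial DNA took 11.6% of the counts in library 1, 10.2% in library 2 and 8.37% in library 3 (10.05 ± 1.60%, SD, n = 3). The exact 95% binomial interval of library 3, which covers counting error only, was 8.36 to 8.38%, so the libraries differed by far more than counting error. The 13 mRNAs made up 10.5%, 9.23% and 7.52%, the ribosomal RNAs 1.06%, 0.958% and 0.832%, and the 22 transfer RNA genes 0.0267%, 0.0249% and 0.0204%.

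Mitochondrial mRNAs encode subunits of the respiratory chain and of ATP synthase. Of the cytochrome c oxidase subunits COX1 was the highest gene of all at 24516, 22598 and 19830.5 CPM, COX3 was at 9867, 8621 and 7006 CPM and COX2 at 9744, 8213 and 6397 CPM. ND4, a subunit of complex I, was at 20818, 17594 and 13773 CPM. The other complex I subunits were lower, ND2 at 6604, 5144 and 4023 CPM, ND1 at 4982, 4292 and 3383 CPM and ND5 at 3874, 3810.2 and 3519.6 CPM. ND4L was at 1554 ± 82.7 CPM, ND3 at 1489.8 ± 289 CPM and ND6 at 1437 ± 299.8 CPM. CYTB, of complex III, was at 8696, 8873 and 7061 CPM, and the ATP synthase subunits ATP6 and ATP8 were at 10502, 8307 and 6330.4 CPM and 183, 121 and 114 CPM. Of the ribosomal RNAs RNR2, of the large subunit, was at 9601, 8679 and 7545 CPM and RNR1, of the small subunit, at 949.98, 897 and 775 CPM.

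The mitochondrial genes did not differ between the libraries by a common factor. The CPM of library 3 was 0.603 of that of library 1 for ATP6, 0.609 for ND2 and 0.622 for ATP8, whereas it was 0.909 for ND5 and 0.902 for ND4L. COX1, at 0.809, lay between these. COX1 thus took 21.2% of the mitochondrial counts in library 1 and 23.7% in library 3, and ATP6 took 9.08% and 7.56%. ATP8 overlaps ATP6, ND4L overlaps ND4, and ND6, beside ND5, is encoded on the opposite strand, so that the share of reads given to each depends on overlap and strand settings that the sources used here do not give. Up to 68.4% of the words of a mitochondrial mRNA (COX1) also lie at another place, since nuclear copies of mitochondrial DNA exist.

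**Figure D2:**
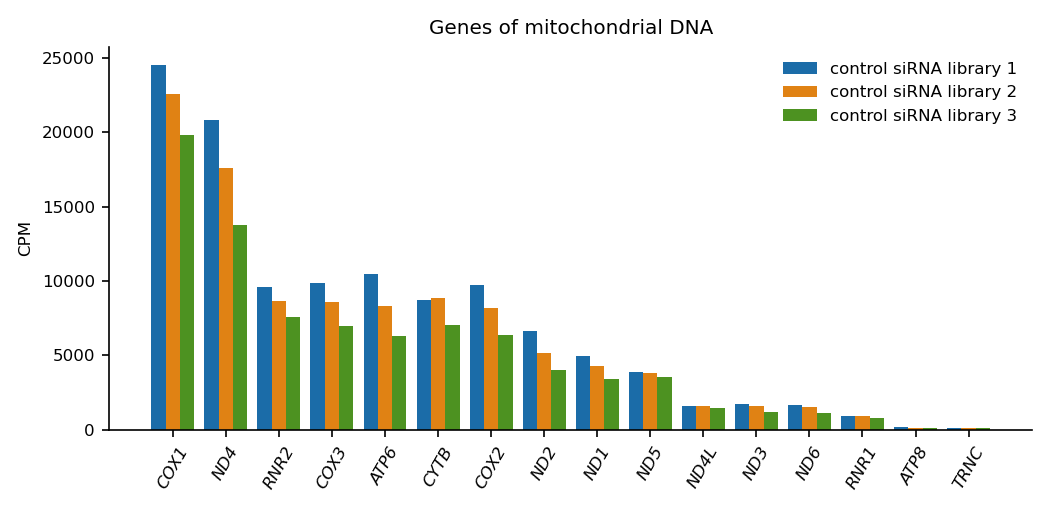
CPM (linear axis) of the 16 genes of mitochondrial DNA with a mean of at least 50 CPM, 1 bar per control siRNA library. Library 1 is the highest for all but CYTB, and ND5 and ND4L differ the least between libraries.

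Of the factors used to subtype SCLC, the 4 given here had 0 to 4 counts in each library. NEUROD1 had 1, 2 and 4 counts, ATOH1, which marks a further neuroendocrine variant, had 1, 4 and 2, POU2F3, the factor of tuft cell-like SCLC, had 2, 2 and 0, and YAP1, the Hippo pathway coactivator of non-neuroendocrine SCLC, had 1, 1 and 0. Their means were 0.0206 (YAP1) to 0.212 TPM (ATOH1), and the order among them rests on these few counts and cannot be read.

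Of 22 factors of neural and lung lineages 11 were expressed, 5 were between and 6 were at the floor. Highest by TPM after INSM1 were HES6, which acts against HES1, at 536 ± 41.2 TPM, the progenitor factor SOX2 at 413 ± 19.1 TPM, the endoderm factor FOXA2 at 232 ± 10.8 TPM and SOX4 at 172 ± 20.6 TPM. PROX1 was at 154, 164 and 196 CPM. Among those at the floor were NEUROG2, NEUROG3, NEUROD4, NHLH2 and HAND2, which drive other neural and endocrine lineages. NKX2-1, the lung lineage factor that many SCLC tumors retain, had 3, 1 and 5 counts. Of the 10 tuft cell genes 3 were expressed, SOX9, ASCL2 and AVIL, while the POU2F3 coactivator gene POU2AF2 and BMX, GFI1B and CHAT were at the floor beside POU2F3.

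Of 25 genes on the high side of an SCLC neuroendocrine score 23 (92.0%) were expressed, with a median of 81.0 ± 6.68 TPM (SD, n = 3), and of 25 genes on the low side 6 were, with a median of 0.529 ± 0.248 TPM. Over all protein-coding genes the median of the mean TPM was 7.18. High members of the first list beside INSM1 were the secreted peptide gene TFF3 at 688 ± 28.2 TPM and the neural signaling gene BEX1 at 491 ± 13.9 TPM. The axonal kinesin KIF1A was at 1132, 1163 and 1410.3 CPM. Between were TMSB15B, whose transcript shares all its words with other places, and MYT1, which has an alternate copy.

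Among non-neuroendocrine genes the highest were TGFBR2, a TGF-beta receptor, at 12.99 ± 1.78 TPM, LGALS3 at 4.30 ± 0.620 TPM, IFITM3 at 3.42 ± 1.14 TPM and PTGES at 1.73 ± 0.307 TPM, the last of them between. At the floor were the caveolins CAV1, with 0 counts in all libraries, and CAV2, EMP1, with 0 counts, ANXA1, TGFBI, ARHGDIB, RAB27B and YAP1. The median gap between the lists was larger than any difference between libraries, as the list medians ran from 74.8 to 88.1 TPM for the neuroendocrine genes and from 0.298 to 0.791 TPM for the others.

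**Figure D3:**
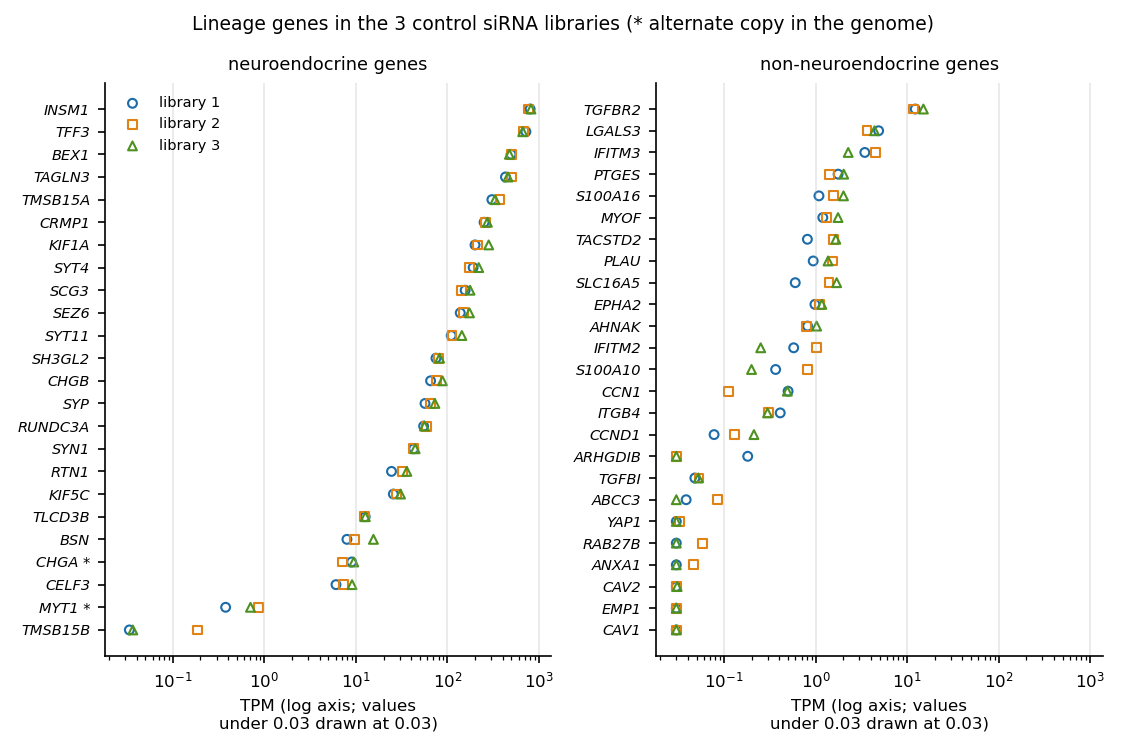
TPM on a log axis of 24 neuroendocrine and 25 non-neuroendocrine genes, 1 symbol per control siRNA library, values under 0.03 drawn at 0.03. INSM1 stands at a mean of 796 TPM, and the highest non-neuroendocrine gene, TGFBR2, reaches a mean of 12.99 TPM.

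Dense core granules store and process peptide hormones. Of 11 granule genes 10 were expressed. The granins SCG2, at 373 ± 24.4 TPM, SCG3 and CHGB, at 158 ± 17.8 TPM and 76.2 ± 11.4 TPM, were among them, and so were PAM, which amidates peptides, at 201 ± 34.98 TPM, and the convertase inhibitor PCSK1N at 137 ± 10.7 TPM. The convertases PCSK1 and PCSK2, which cut prohormones, were at 32.3, 49.8 and 54.6 CPM and 97.4, 121 and 131 CPM, lowest in library 1 in both cases. CHGA, the usual clinical marker, was at 8.59, 6.53 and 7.998 CPM, and SCG5, the PCSK2 chaperone, had 0 counts. Both of these have an alternate copy.

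Of 24 peptide hormone precursor genes 7 were expressed, 8 were between and 9 were at the floor. NTS, the precursor of neurotensin, was at 1674, 1319 and 1314 CPM, highest in library 1. GRP, the gastrin-releasing peptide that SCLC is known to secrete, was at 22.5, 22.8 and 24.2 CPM, CALCA, of calcitonin, at 18.7, 21.9 and 22.9 CPM, and PENK, of enkephalins, at 20.9, 21.9 and 21.9 CPM. Per exon length NTS was at 3064 ± 317 TPM and the next gene, GRP, at 89.9 ± 9.45 TPM. ADCYAP1, NMU and GAL were expressed at means of 14.6, 4.02 and 2.97 CPM. At the floor were GAST, CCK and PTHLH, with 0 counts each, and OXT, TAC1, SST, CALCB, VIP and PDYN. POMC, whose product ACTH causes a known SCLC syndrome, had 10, 5 and 13 counts.

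Of 15 surface proteins studied as SCLC drug targets 10 were expressed. CD24 was the highest at 1156 ± 54.4 TPM, although 74.0% of its words lie at more than 1 place, followed by CD47, the signal against phagocytosis, at 239.5 ± 34.5 TPM, and SEZ6 at 154 ± 18.3 TPM. DLL3, an inhibitory Notch ligand, was at 60.97, 60.5 and 60.6 CPM. Its SD, 0.248 CPM, was the smallest of the 10. Counting error alone gives a median CV of 3.59% at 20 to 100 CPM, so this SD does not show that DLL3 is steadier. By TPM DLL3 was at 77.3 ± 4.84 TPM. CEACAM5 was at 33.8, 45.04 and 53.3 CPM and B4GALNT1, the GM2/GD2 synthase, at 44.6, 54.3 and 64.4 CPM, both lowest in library 1. The somatostatin receptor SSTR2 was at 1.23, 1.38 and 0.901 CPM and the GD3 synthase ST8SIA1, which GD2 also needs, had 4, 5 and 5 counts. FOLH1 had 0 counts.

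Of the MYC family, which drives growth and of which SCLC amplifies different members, MYC was at 226, 249 and 241 CPM, MYCL at 5.55, 3.14 and 3.60 CPM and MYCN at 0.935, 1.38 and 1.69 CPM. By TPM MYC was at 130.4 ± 12.5 TPM, MYCL at 2.73 ± 0.742 TPM and MYCN at 1.63 ± 0.560 TPM, so that MYC was above the others by more than the spread. With canonical transcript lengths MYCL was at 2.54 ± 0.722 TPM and MYCN at 1.13 ± 0.376 TPM, so whether they stand apart depends on the length used. The partner MAX was at 20.8 ± 1.57 TPM.

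All 13 cell cycle brakes and tumor suppressors were expressed. The CDK4 and CDK6 inhibitor genes CDKN2C and CDKN2A were the highest at 201 ± 12.3 TPM and 133 ± 2.59 TPM, followed by MDM2 at 68.3 ± 8.18 TPM and CDKN1A at 64.1 ± 5.35 TPM. With canonical transcript lengths CDKN1B, at 98.6 ± 8.37 TPM, was above CDKN1A and MDM2, at 59.7 ± 4.34 TPM and 49.9 ± 5.42 TPM. RB1 was at 17.4, 19.7 and 21.4 CPM, and an mRNA level says nothing of whether the protein works. Of the G1 cyclins, their kinases and the E2F transcription factors, 9 of 11 were expressed. The highest were CDK4 at 259 ± 7.86 TPM, E2F1 at 227 ± 32.6 TPM, CDK2 at 121 ± 10.2 TPM and CCND3 at 76.8 ± 3.96 TPM. CCND1 and CCND2, the partners of CDK4 and CDK6 in many other cells, had 2, 3 and 5 and 3, 11 and 3 counts.

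All 22 proliferation genes were expressed, with a median of 149.6 ± 7.68 TPM. PCNA, the clamp of DNA polymerases, was at 675 ± 34.7 TPM, CCNB1, the mitotic cyclin, at 411 ± 16.5 TPM, TOP2A at 308 ± 46.97 TPM and MCM2 at 252 ± 20.7 TPM. MKI67 was at 452, 413 and 576 CPM, highest in library 3. Of 13 spindle and centrosome genes 12 were expressed, TPX2 at 411 ± 28.7 TPM, KIF4A at 90.8 ± 10.9 TPM, KIF11 at 85.6 ± 8.51 TPM and KIF2C at 84.9 ± 6.32 TPM. The exception was KIFC1, the gene that the study silenced in its other libraries, with 14, 4 and 14 counts in the control libraries (0.818, 0.251 and 0.789 CPM), which is close to the floor. By immunoblot the study found more KIFC1 protein in SCLC cells than in normal bronchial and other lung cancer cells. In public data it found KIFC1 mRNA highest in SCLC lines among cancer types, and in patient samples above normal tissue and other lung cancers. By RT-qPCR it checked the knockdown of KIFC1 mRNA in SCLC cells. The low counts here stand against those mRNA levels, which come from other measurements. These counts alone therefore do not show how much KIFC1 the cells make. KIFC1 lies at the edge of the major histocompatibility region and has an alternate copy, which is taken up with the genes of that region.

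The epithelial list had a median of 188 ± 14.7 TPM and the mesenchymal list one of 1.25 ± 0.256 TPM. Over all protein-coding genes the median of the mean TPM was 7.18. The share of mesenchymal genes expressed, 58.8%, was near the 64.5% of all protein-coding genes. Of 9 epithelial genes 8 were expressed, EPCAM at 497, 494 and 498 CPM, KRT8 at 414, 443 and 415 CPM, KRT19 at 130.1, 148 and 139 CPM and KRT18 at 174, 191 and 168 CPM. CDH1 (E-cadherin) was at 87.7, 87.4 and 111 CPM. Of 17 mesenchymal genes 10 were expressed, led by CDH2 (N-cadherin) at 173, 157 and 181 CPM and THY1 at 67.1, 85.6 and 83.6 CPM, with TWIST1 and SNAI1 at 12.3 ± 0.560 CPM and 7.99 ± 0.596 CPM. VIM had 2, 3 and 5 counts, and DCN, FAP, LUM, PDGFRB and ZEB1 were at the floor.

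Of 18 genes of other lung epithelium 5 were expressed: ABCA3, a lipid transporter known from alveolar type 2 cells, at 265, 281 and 329 CPM, the ciliated cell factor FOXJ1 at 9.88, 14.3 and 12.6 CPM, LAMP3 at 16.9, 13.1 and 17.2 CPM, the basal cell factor TP63 at 26.8, 20.2 and 25.5 CPM and MUC5AC at 4.21, 4.08 and 3.38 CPM. The surfactant genes SFTPC, SFTPA1 and SFTPA2, the secretoglobins SCGB3A1 and SCGB3A2, KRT14 and AGER were at the floor. Of these 7 genes 1 has an alternate copy. The other surfactant genes, SFTPB and SFTPD, had 4, 5 and 2 and 7, 14 and 13 counts.

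Genes of cells that should not be in the culture were low. Of 13 immune cell genes 3 were expressed, CD68, CD14 and PTPRC, at 2.23 ± 0.801 CPM, 1.60 ± 0.0894 CPM and 2.28 ± 1.01 CPM, and CD3D, CD3E, FCGR3A, NKG7 and TYROBP were at the floor. The summed level of all 13 was 8.36, 6.16 and 8.34 CPM. Of 10 endothelial, red cell and liver genes VWF was expressed at 3.99 ± 0.406 CPM, and ALB, TTR, CDH5, KDR, HBB and HBA1 were at the floor. The summed level of all 10 was 4.62, 6.72 and 4.56 CPM.

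Notch signaling counters the neuroendocrine state through HES1 and REST. Of its 17 genes 13 were expressed. The ligands DLL3, DLK1, JAG2 and JAG1 led at 77.3 ± 4.84 TPM, 61.2 ± 9.09 TPM, 44.6 ± 2.54 TPM and 31.4 ± 8.32 TPM, and the receptor NOTCH1 was at 16.3, 12.2 and 17.8 CPM. Of the targets HES1 was at 3.39, 3.45 and 2.99 CPM and HEY1 at 24.8, 23.9 and 25.8 CPM. REST, the repressor of neuronal genes, had 5, 5 and 1 counts. NOTCH2 had 4, 1 and 3 counts, and DLL1 and NOTCH4, which were at the floor, have alternate copies.

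Of 14 Hippo pathway genes 8 were expressed. The kinase LATS1 and the DNA-binding factors TEAD1 and TEAD4 were at 51.3 ± 7.42 TPM, 41.3 ± 8.26 TPM and 31.4 ± 3.19 TPM, and the target CCN2 at 10.4 ± 0.660 TPM. YAP1 and its target ANKRD1 were at the floor, and the paralog WWTR1 (TAZ) had 23, 13 and 20 counts. Of 10 TGF-beta pathway genes 9 were expressed, TGFBR1 at 41.6 ± 6.38 TPM, SMAD4 at 33.97 ± 3.05 TPM, SMAD7 at 22.4 ± 4.23 TPM and SMAD2 at 16.6 ± 1.26 TPM.

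Receptor tyrosine kinases carry growth factor signals, and 9 of 13 were expressed. MET was at 96.3, 85.4 and 110.4 CPM, FGFR1 at 191, 213 and 243 CPM, RET at 78.3, 108 and 116 CPM and PDGFRA at 74.5, 103 and 128 CPM. Per exon length they were at 45.1 ± 8.42 TPM, 42.01 ± 7.79 TPM, 37.7 ± 9.41 TPM and 35.96 ± 11.7 TPM, which overlapped within their SDs. With canonical transcript lengths FGFR1 stood above the others at 83.5 ± 14.6 TPM, and MET, RET and PDGFRA were at 31.5, 39.6 and 35.4 TPM. EGFR and ALK, which drive other lung cancers, had 2, 1 and 0 and 1, 1 and 1 counts and were at the floor. Of 14 integrins and matrix receptors 12 were expressed, ITGA6 at 117 ± 26.8 TPM, ITGB1 at 77.1 ± 13.8 TPM, ITGB5 at 12.7 ± 1.52 TPM and ITGA2 at 10.8 ± 2.46 TPM.

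Of 20 genes of interferon signaling and nucleic acid sensing 13 were expressed. Of the signal factors IRF3 was at 64.3, 71.05 and 66.1 CPM and STAT2 at 54.4, 56.7 and 63.3 CPM, and the RNA sensor RIGI was at 42.03, 45.5 and 48.3 CPM. STING1, the adaptor of DNA sensing, had 1, 3 and 0 counts, CGAS, the DNA sensor that feeds it, had 4, 2 and 9, and TLR3 had 1, 1 and 2. SLFN11, whose loss is known to go with resistance to DNA-damaging drugs, had 1, 2 and 3 counts. IFNB1 had 2, 0 and 0 counts, and IRF7, with an alternate copy, had 1, 0 and 0. Of the induced genes IFI6 was at 16.9 ± 3.22 TPM and ISG15 at 11.3 ± 0.613 TPM.

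Of 13 members of the BCL2 family 12 were expressed. PMAIP1 (NOXA), a death-promoting member that binds MCL1, was the highest at 414 ± 7.64 TPM, the protective MCL1 and BCL2L1 were at 171 ± 17.6 TPM and 97.8 ± 4.26 TPM, and the effector BAX was at 92.3 ± 4.12 TPM. BCL2 was at 81.8, 72.7 and 89.8 CPM. The exception was BCL2A1, with 1, 1 and 4 counts. Of 14 genes of death receptor and lytic death pathways 11 were expressed, FADD at 74.7 ± 6.46 TPM, TNFRSF1A at 41.6 ± 3.78 TPM, BID at 32.2 ± 1.30 TPM and TNFRSF10B at 15.8 ± 4.01 TPM. CASP8, the initiator caspase of death receptors, was at 2.92, 1.88 and 1.97 CPM, CASP10 had 2, 3 and 1 counts, and RIPK3, the kinase of necroptosis, had 0 in all libraries. GSDMD, a pore former with an alternate copy, had 1, 1 and 0 counts, and its paralog GSDME was at 20.7, 22.2 and 21.1 CPM.

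Of 13 cancer-testis and imprinted genes 7 were expressed and 6 were at the floor, with none between. MAGEC2 was at 187, 197 and 193 CPM, MAGEA3 at 155, 149 and 139 CPM, MAGEA1 at 35.3, 40.2 and 35.9 CPM and the imprinted PEG10 at 529.7, 495 and 556 CPM. Of the MAGEA3 words 70.3% also lie elsewhere. MAGEA4, PRAME, H19, IGF2, MEG3 and PEG3 were at the floor, and PRAME has an alternate copy. CTAG1B, whose words all lie at 2 or more places, was at 1.34, 6.78 and 1.07 CPM.

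Of the noncoding RNAs NORAD was at 587, 615 and 679 CPM and MALAT1 at 260.3, 132 and 177 CPM, which was highest in library 1. RN7SL2, of the signal recognition particle, was at 24.4, 8.04 and 10.1 CPM and RPPH1, of ribonuclease P, at 2.10, 0.503 and 0.394 CPM, both also highest in library 1, and 95.2% of the RN7SL2 words lie at more than 1 place. NEAT1 had 12, 10 and 17 counts.

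Low levels were not spread evenly along the genome. In the major histocompatibility complex (MHC) region of chromosome 6, whose protein-coding genes were taken from 29602238 to 33457544 in GRCh38, 6 of 147 protein-coding genes (4.08%) were expressed, against 544 of 847 (64.2%) on the rest of that chromosome. GRCh38 holds 261 alternate sequences beside its chromosomes, which repeat parts of them. A gene was taken to have an alternate copy when 90% or more of the 32-base words in its GENCODE 44 canonical transcript lie on these sequences. Of the protein-coding genes with such a copy 94 of 681 (13.8%) were expressed, against 12263 of 18392 (66.7%) without. Outside the MHC region the share was 90 of 540 (16.7%).

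The windows below show what such a copy means for INSM1, which has none, and for KIFC1, TUBB, B2M and CHGA, which have one. Each is the central 60 bases, read on the coding strand, of the longest coding exon of the canonical transcript. The INSM1 window, at chr20:20369003-20369062 on the plus strand, lies on 1 chromosome place and on 0 alternate sequences. The KIFC1 window, at chr6:33405212-33405271 on the plus strand, lies on 1 chromosome place and with the same letters on 2 alternate sequences. The TUBB window, at chr6:30723837-30723896 on the plus strand, lies on 7 of them, and the B2M window, at chr15:44715532-44715591, and the CHGA window, at chr14:92932581-92932640, both on the plus strand, lie on 1 each.
INSM1: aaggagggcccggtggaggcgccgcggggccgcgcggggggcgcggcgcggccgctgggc
KIFC1: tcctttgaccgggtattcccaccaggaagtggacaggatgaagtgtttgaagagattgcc
TUBB: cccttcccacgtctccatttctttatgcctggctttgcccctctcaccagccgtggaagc
B2M: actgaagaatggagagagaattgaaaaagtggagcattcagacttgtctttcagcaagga
CHGA: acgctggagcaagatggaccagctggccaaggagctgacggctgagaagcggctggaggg

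Broadly used genes of the MHC region, which have such copies, were low. Of 30 broadly used genes of the MHC region, which span splicing, translation and chromatin, 2 were expressed, BRD2 and DAXX, at 4.15, 6.16 and 4.22 CPM and 1.46, 2.01 and 2.14 CPM, and 11 were at the floor. The beta tubulin gene TUBB had 10, 6 and 11 counts, the ribosomal protein gene RPS18 had 5, 5 and 6, and the helicase gene DDX39B had 0 in each library. All 19 reference genes of other regions, also listed by hand, were expressed, with a median of 497 ± 17.5 TPM. None of those 19 has an alternate copy, and all 30 genes of the MHC region do. Region and copy thus cannot be told apart between these lists. The libraries also differed in single genes of this region: FLOT1 had 97, 8 and 8 counts, NELFE 4, 4 and 69, MRPS18B 13, 1 and 1 and SKIC2 1, 28 and 3, and no library was high in all of them. Whether the index used for alignment held the alternate sequences, and how reads that fit several places were counted, is not given in the sources used here, and their part in these low values was not tested.

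The same limit touches antigen presentation, a pathway that is known to be low in SCLC. Of 16 MHC class I genes 7 were expressed and 7 were at the floor. CALR and PDIA3, chaperones with wider roles, were at 1371 ± 103 TPM and 91.7 ± 11.03 TPM, B2M was at 36.5, 32.8 and 43.9 CPM and HLA-B at 5.49, 9.49 and 6.59 CPM. HLA-C, HLA-E, TAP1, TAP2, PSMB8 and PSMB9 had 0 counts in all libraries, and TAPBP had 0, 1 and 2. These 7 genes all have an alternate copy. Of the 7 class I genes without one, 6 were expressed, among them HLA-B, which lies just under the threshold with 87.7% of its words on alternate sequences. The regulator NLRC5, without an alternate copy, had 3, 19 and 18 counts. Of 8 class II genes none was expressed and 6, HLA-DRA, HLA-DRB1, HLA-DPA1, HLA-DPB1, HLA-DQA1 and HLA-DMA, had 0 counts. Of these 6, 4 have an alternate copy and 2 were not classed as having one. CIITA, the class II regulator, and CD74, neither of which has an alternate copy, had 12, 14 and 16 and 2, 8 and 7 counts.

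Genes of the pseudoautosomal region, which chromosomes X and Y both carry, are also present at 2 places. Of 9 such genes 6 were expressed, GTPBP6 at 16.8, 16.5 and 26.9 CPM, SLC25A6, a mitochondrial ADP/ATP carrier, at 5.44, 6.16 and 6.03 CPM, ASMTL, PLCXD1, ZBED1 and AKAP17A. CD99, a surface protein, had 0 counts in all libraries, and DHRSX and PPP2R3B were between. Of the 2 genes between, 1 has an alternate copy.

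The spread over the 3 libraries was small for most genes. The biological coefficient of variation, the spread beyond counting error shared by all genes, was 9.39% (edgeR, 14165 genes). It was 6.97% without library 3, 9.58% without library 1 and 11.0% without library 2. The median coefficient of variation (CV) of single expressed genes was 17.2% at a mean of 1 to 5 CPM, where counting error alone gives 14.98%, 7.19% at 20 to 100 CPM, where it gives 3.59%, and 6.37% at 100 to 1000 CPM, where it gives 1.92%. Over 1000 CPM it was 8.22% for 44 genes, 13 of them not nuclear protein-coding genes.

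Library 3 differed from the others by transcript length. In the longest quintile of expressed nuclear genes (canonical transcripts of 5814 bases or more) the median gene was 11.4% above its own mean over the libraries in library 3, and 6.16% and 4.10% below it in libraries 1 and 2. In the shortest quintile (up to 1781 bases) it was 4.65% below its mean in library 3 and 4.68% above it in library 2. Across 13134 genes the log2 ratio of library 3 to library 1 had a Spearman correlation of 0.417 with transcript length, that of library 3 to library 2 one of 0.511, and that of library 2 to library 1 one of -0.0600. These are descriptions across genes that share the libraries. The higher levels in library 3 given above for long transcripts such as MAP1B and KIF1A move with this pattern, and its source was not tested.

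**Figure D4:**
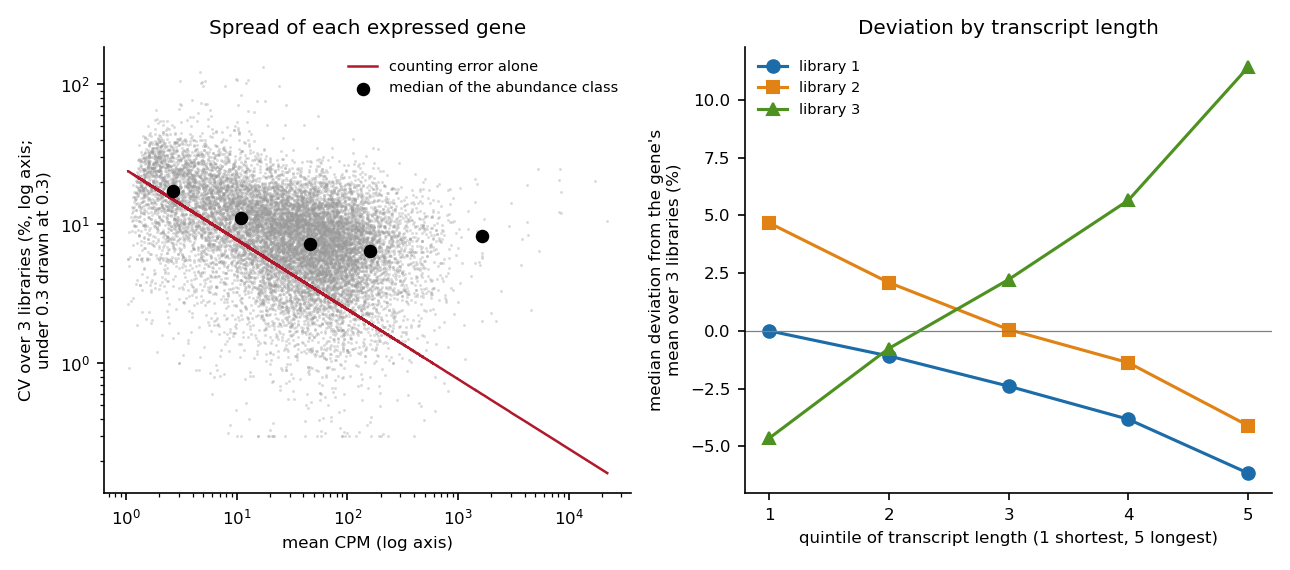
Left, CV over the 3 libraries against mean CPM for each expressed gene (log axes), with the counting error alone (red line) and the median of each abundance class (black). Right, median deviation of expressed nuclear genes from their own mean by quintile of transcript length, 1 line per library; library 3 runs from -4.65% to 11.4%.

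The 10 most variable genes with a mean of at least 20 CPM had CVs of 34.8% to 97.9%, and 9 of them are given here. The highest was LSM14A, an mRNA-binding protein gene, at 12.6, 51.1 and 8.39 CPM, highest in library 2. SCRIB, a polarity gene, was at 47.6, 7.60 and 28.7 CPM, highest in library 1. The splicing factor gene PUF60 was at 27.6, 13.00 and 40.4 CPM. These 3 have an alternate copy, and of HERC2, at 29.2, 27.6 and 64.4 CPM, 88.3% of the words lie on alternate sequences. The others were the long genes CRYBG3, NEB, of a giant muscle protein, KMT2D, a histone methyltransferase gene, and MTCL2, with KMT2D at 129, 144 and 241 CPM and NEB at 76.4, 97.9 and 165 CPM, and MIR5047 at 31.5, 61.7 and 64.9 CPM. The MIR5047 value counts reads over a gene of 100 bases and is no measure of a mature microRNA. Of the 10 genes 8 were highest in library 3. Of the 40 most variable genes 25 were in the longest quintile of transcript length, against 1941 of all 8312 genes at that level, and 5 had an alternate copy, against 13 of 8312.

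Genes with an alternate copy that were still expressed varied more than others of like level. At 5 to 20 CPM their median CV was 34.9% over 46 genes, against 10.8% over 2947 genes without a copy, where counting error alone gives 8.14% and 7.29%. At 20 CPM or more the medians were 18.6% over 13 genes and 6.99% over 8267.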

How the data were processed

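RNA was sequenced from H146 cells 48 hours after transfection. Per the labels and methods, the authors aligned reads to GRCh38 with HISAT2 2.2.1 and counted them per gene with featureCounts 2.0.8. They deposited counts of 28395 genes under NCBI gene IDs, all whole numbers. The annotation, strand setting and treatment of reads with several places are not given in the sources used here. The 3 control siRNA columns held 15919169 to 17754458 counts. RefSeq paired 27745 IDs with a symbol, and the 650 others held 0.0564% to 0.0709% of a library's counts. CPM were counts over the library total. TPM used GENCODE 44 exon lengths, available for 25928 genes with 99.7% of the counts. The biological coefficient of variation came from edgeR 4.0.16 with an intercept only, tested on simulated data. Tables were made with R 4.3.3, Python 3.11.15, pandas 2.3.3 and scipy 1.17.1. No p-value was computed.

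Named are the 25 genes highest by CPM, the given markers and KIFC1, small lists in full, of longer lists mainly the 4 highest by TPM, the members at the floor and up to 4 more, the 10 most variable genes at 20 CPM or more, and the mitochondrial genes. Genes named beside these were chosen after their values were seen. Some genes that these rules name, 1 of the most variable genes among them, are not reported here. The 36 lists (484 genes) were written by hand from general knowledge, and the libraries and lists were chosen with earlier results of these data known. Alternatives were TMM, DESeq2 1.42.0 size factors, totals without mitochondrial genes, other cutoffs, canonical transcript lengths and each library left out.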

Additional observations from a re-analysis of the deposited data

How the results depend on the processing

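The levels, counts and shares kept their values within the spread, or within 1.5 times for counts, under 40 of 44 alternatives of the summaries. Leaving mitochondrial genes out of the library total raised the median level of expressed genes from 31.6 to 35.1 CPM, a common shift of 0.15 on the log2 scale, and lowered the share of the 10 most abundant genes, then all nuclear, from 9.68% to 3.87%. With 0 counts in every library as the floor, 6646 genes were at it in place of 10977. Of the 10 most variable genes 1 remained among the 10 when the minimum mean was 5 CPM, and 9 remained with TMM. With each library left out in turn, expressed genes numbered 13530 to 13658, genes at the floor 11236 to 11419, the mitochondrial share was 9.29% to 10.9%, the share of the 10 most abundant genes 8.98% to 10.4%, and the biological coefficient of variation 6.97% to 11.0%. With at least 0.5 CPM as the cutoff 11 of the 25 non-neuroendocrine genes were expressed, and with at least 1 TPM 12 of the 24 hormone precursors. Canonical transcript lengths moved the median over the list medians from 8.07 to 8.49 TPM, but moved 19 of the 36 list medians by more than 1 SD, 10 of them up and 9 down. The changes over 1.5 times were from 66.3 to 123.5 TPM for the given markers, 11.7 to 22.6 for the MYC family, 2.23 to 4.03 for the interferon list, 0.231 to 0.365 for MHC class I, 18334 to 12096 for mitochondrial mRNAs and 10678 to 7043 for mitochondrial rRNAs. The order of genes within a list also changed in places.

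Depth limits the lowest levels, as 1 count is 0.0563 to 0.0628 CPM. The p-values and tests of other designs do not apply, and no paired analysis was possible because only 1 group was described. Levels of genes with alternate copies, paralogs or overlapping neighbours are uncertain.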
